A study of Mus musculus with 6 samples.

Results

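The genes described here build, prime and fuse secretory vesicles. The set was chosen by gene symbol and holds 53 named mouse genes, of which 51 were found on the array (100 probes) and 50 had a probe bright enough to be tested, among 19848 features in all. Syt5 and Sv2c matched no probe here, and Syt6 was not well above background on all arrays of either group. The measurements come from single-colour Agilent arrays of 6 primary lines cultured from the lung tumours of C57BL/6J mice with the genotype Rb1L/L, Trp53L/L, which model small cell lung carcinoma. The lines form 3 pairs in the labels, each with 1 line called SMC and 1 line called non-SMC, and do not spell out the abbreviation. Both lines of every pair share the strain, the tissue and the genotype, the mice of pairs 1 and 3 were female and that of pair 2 male by label, and no treatment is named. How the alleles were recombined and whether a line is a clone were not stated in the labels. Each group therefore held 3 lines with 1 array each, and lines are numbered by their pair.

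Regulated exocytosis is the release of stored cargo when calcium enters the cell. A SNARE protein on the vesicle zips together with SNAREs on the target membrane, Munc18 and Unc13 proteins prepare this complex, complexins clamp it, and synaptotagmins sense the calcium. Neurons use this machinery for transmitter release, and neuroendocrine cells, including those of the lung from which small cell carcinoma can arise, use it for peptide and amine granules. Other cell types release cargo with related but more widely expressed members such as Snap23, Stx4a and Vamp8.

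Levels are given as log2 signal minus the log2 of that array's 75th percentile, so that 0 is the level of that percentile, and all differences are SMC minus non-SMC. Levels of different genes come from different probes and are not set against each other. Of 41174 probes, 64.1% to 68.5% per array stood well above background, and none was saturated. The arrays lay on 3 slides: non-SMC 1 alone on the first, SMC 3 alone on the last, and the other 4 lines together, so that only pair 2 had both of its lines on 1 slide. Rb1 transcripts gave signals of 0.63, 0.63 and 0.27 in SMC and -2.07, -0.38 and -2.09 in non-SMC lines. Every SMC line thus lay above every non-SMC line (22.8% of all features). Trp53 transcripts gave -0.36 to 0.14 over the 6 lines, overlapping between groups. The probes' positions relative to the altered parts of these genes were not examined.

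Markers of cell types were read beside the vesicle genes. All 11 neuroendocrine markers were detected in each SMC line, with median signals of 4.0, 3.64 and 4.18, against 9, 11 and 11 detected in non-SMC lines 1 to 3 with medians of -3.09, 2.02 and -1.38. Non-SMC 2 thus stood near the SMC lines in these markers, while Insm1 and Scg2 were not well above background in non-SMC 1. Calca, Ncam1, Dll3 and Scg2 overlapped between groups, and the other neuroendocrine markers lay higher in every SMC line (22.8% of all features). Of 10 mesenchymal or fibroblast markers, 5, 4 and 6 were detected in the SMC lines, with medians of -6.39 to -5.21, and all 10 in every non-SMC line, with medians of 3.25 to 4.12. Among them Thy1 and Pdgfra overlapped between groups, and the others lay lower in every SMC line (15.4% of all features). Of 8 leukocyte markers 3, 4 and 6 were detected in the SMC lines and 4, 4 and 7 in the non-SMC lines, with medians of -6.84, -6.92 and -5.35 in SMC and -6.57, -6.49 and -3.84 in non-SMC lines. Cd14, a marker of monocytes and macrophages, had -6.47, -4.53 and -5.97 in SMC and 0.66, 1.96 and 3.54 in non-SMC lines. Every SMC line thus lay below (15.4% of all features), while the other leukocyte markers overlapped between groups. Ptprc, Tyrobp, Lyz2 and Itgam were not well above background in non-SMC 1 or 2. Lyz2 was highest in SMC 3, at 0.12. Of 5 endothelial markers, each array detected 1, which was Tek in SMC 1 and 3 and Kdr in SMC 2 and every non-SMC line. The part of cell composition in the differences below was not tested, and on arrays of whole cultures fewer cells of a type and less RNA per cell cannot be told apart.

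Promoters of the members were taken from RefSeq (GRCm38.p6) as 300 bases, 250 before and 50 after a transcription start. They are shown for Lin7a, the member that passed the test, for Cplx1, Syt1 and Syp, which lay higher in every SMC line, and for Snap23, which lay lower in every SMC line. These promoters were picked after the values were seen. Capitals mark the E-box CAGCTG or CAGATG, on either strand (CAGATG reads CATCTG on the other), a sequence that basic helix-loop-helix factors can bind. The coordinates are chr10:107271581-107271880 and chr10:107272144-107272443 (both plus strand) for the Lin7a starts, chr5:108549978-108550277 (minus strand) for Cplx1, chr10:109009062-109009361 and chr10:109010926-109011225 (both minus strand) for the Syt1 starts, chrX:7638330-7638629 (plus strand) for Syp and chr2:120567421-120567720 (plus strand) for Snap23. Each is printed 5′ to 3′ on the strand of its gene.
Lin7a, first start: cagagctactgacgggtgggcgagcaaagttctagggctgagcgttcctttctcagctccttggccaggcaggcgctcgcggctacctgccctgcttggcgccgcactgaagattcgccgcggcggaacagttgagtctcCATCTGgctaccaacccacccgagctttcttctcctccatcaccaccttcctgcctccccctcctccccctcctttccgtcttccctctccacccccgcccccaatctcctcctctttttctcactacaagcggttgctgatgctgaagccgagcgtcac
Lin7a, second start: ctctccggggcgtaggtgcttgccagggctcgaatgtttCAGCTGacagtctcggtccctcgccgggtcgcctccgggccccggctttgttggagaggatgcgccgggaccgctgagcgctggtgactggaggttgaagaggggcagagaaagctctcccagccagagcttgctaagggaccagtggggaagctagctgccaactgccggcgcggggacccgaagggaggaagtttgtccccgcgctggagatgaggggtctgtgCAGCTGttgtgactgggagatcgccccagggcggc
Cplx1: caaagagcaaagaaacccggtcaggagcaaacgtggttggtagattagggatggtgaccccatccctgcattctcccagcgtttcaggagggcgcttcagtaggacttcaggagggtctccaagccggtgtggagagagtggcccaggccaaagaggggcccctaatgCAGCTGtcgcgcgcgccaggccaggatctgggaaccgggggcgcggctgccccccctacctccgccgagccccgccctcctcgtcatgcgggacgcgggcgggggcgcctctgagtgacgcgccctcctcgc
Syt1, start at the lower coordinate: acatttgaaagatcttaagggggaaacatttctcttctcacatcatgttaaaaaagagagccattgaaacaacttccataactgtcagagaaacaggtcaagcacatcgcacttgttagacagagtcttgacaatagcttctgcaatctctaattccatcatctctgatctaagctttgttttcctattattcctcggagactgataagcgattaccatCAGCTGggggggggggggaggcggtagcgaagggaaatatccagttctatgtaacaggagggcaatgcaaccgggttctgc
Syt1, start at the higher coordinate: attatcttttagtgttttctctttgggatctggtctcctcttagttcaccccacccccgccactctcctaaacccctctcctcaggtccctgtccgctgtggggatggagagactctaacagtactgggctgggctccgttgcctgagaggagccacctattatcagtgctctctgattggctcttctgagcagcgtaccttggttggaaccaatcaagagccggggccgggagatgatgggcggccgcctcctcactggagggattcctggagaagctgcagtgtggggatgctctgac
Syp: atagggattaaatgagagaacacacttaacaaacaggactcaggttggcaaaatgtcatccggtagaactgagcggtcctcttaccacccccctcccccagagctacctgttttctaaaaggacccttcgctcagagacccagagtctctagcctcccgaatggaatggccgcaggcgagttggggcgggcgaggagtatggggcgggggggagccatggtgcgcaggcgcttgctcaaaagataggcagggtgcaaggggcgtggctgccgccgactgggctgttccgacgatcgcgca
Snap23: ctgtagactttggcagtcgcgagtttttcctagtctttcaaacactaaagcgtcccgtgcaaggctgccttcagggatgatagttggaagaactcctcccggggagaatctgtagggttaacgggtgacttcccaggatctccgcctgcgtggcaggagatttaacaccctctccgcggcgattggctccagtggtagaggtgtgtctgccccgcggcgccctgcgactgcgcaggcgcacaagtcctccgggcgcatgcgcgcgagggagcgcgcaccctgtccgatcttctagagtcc
The second Lin7a promoter holds CAGCTG at 2 places and that of Cplx1 at 1, the first Lin7a promoter holds CAGATG at 1 place, and 1 of the Syt1 promoters holds CAGCTG at 1 place. The other Syt1 promoter and those of Syp and Snap23 hold neither, so these windows do not separate the members by direction. Promoters were found for 40 members, 53 in all because 10 members had more than 1 start. Of these, 13 (24.5%, from 11 genes) held CAGCTG, against 16.3% of all 32851 mouse promoters of this length, and 4 (7.55%) held CAGATG, against 17.2%. The GC box GGGCGG was in 35 member promoters (66.0%), against 35.7% of all. CACGTG was in 13.2% of member promoters and 7.15% of all, the cyclic AMP response element TGACGTCA in 3.77% and 1.79%, TATAAA in 9.43% and 13.6%, and the TEAD site CATTCC in 9.43% and 14.7%. The RE1 element, through which REST acts on neuronal genes, was searched as its exact core (no member promoter, 0.0517% of all), as a degenerate RE1 (no member promoter, 0.244% of all) and as its left part CAGCACC (11.3% and 7.14%) and right part GGACAG (30.2% and 22.2%). All 11 motifs were searched on both strands, and CAGCACC and GGACAG share letters with the core. The core and the degenerate RE1 are so rare over all promoters that finding none among 53 is uninformative. Sites outside these windows were not searched.

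Of the 50 members tested, 36 had a positive difference and 14 a negative one. The median member difference was 1.96, and that of all features was 0.18. Lin7a passed the test as higher in SMC (1 of 50, where 0.156% of all features passed in this direction). It was kept in the test through the SMC arrays only, and with detection required on all arrays it was not tested and no member passed. No member passed as lower (3.03% of all features did). These calls are from limma with Benjamini-Hochberg adjustment over all features. At an unadjusted p under 0.05, 26 members were on the higher side (14.9% of all features) and 5 on the lower side (11.8%). With median scaling in place of the 75th percentile, the calls over all features were 239 higher and 974 lower, against 31 and 602, and those over members were 3 higher (Cplx1, Cplx2 and Lin7a, where 1.2% of all features passed) and 1 lower (Syt12, 4.91%). In 24 members every SMC line lay above every non-SMC line (22.8% of all features), and in 5 every SMC line lay below (15.4%).

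All 50 members were detected on the 3 SMC arrays, and 36 were also detected on the 3 non-SMC arrays. The other 14 (Syt2, Syt3, Syt4, Syt9, Snap25, Syn2, Syn3, Sv2b, Cplx1, Rab3c, Unc13a, Cadps2, Lin7a and Ptprn2) were tested only because they were bright in SMC. Their differences include non-SMC signals not well above background, taken as measured, so their sizes are uncertain, and their large differences (median 4.57, against 2.03 for all 2017 features that passed in this way) follow in part from the filter, and the counts over tested members are no support for a direction of the whole set. The 36 detected on all 6 arrays had a median of 0.68, against 0.15 for the 16320 features detected on all 6 arrays. With normexp background correction, which lifts dim signals, the median over the 50 members was 0.88. More than 1 probe was kept for 28 members, and their probes differed in sign for Lin7c, Stx3 and Syn1.

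**Figure D1:**
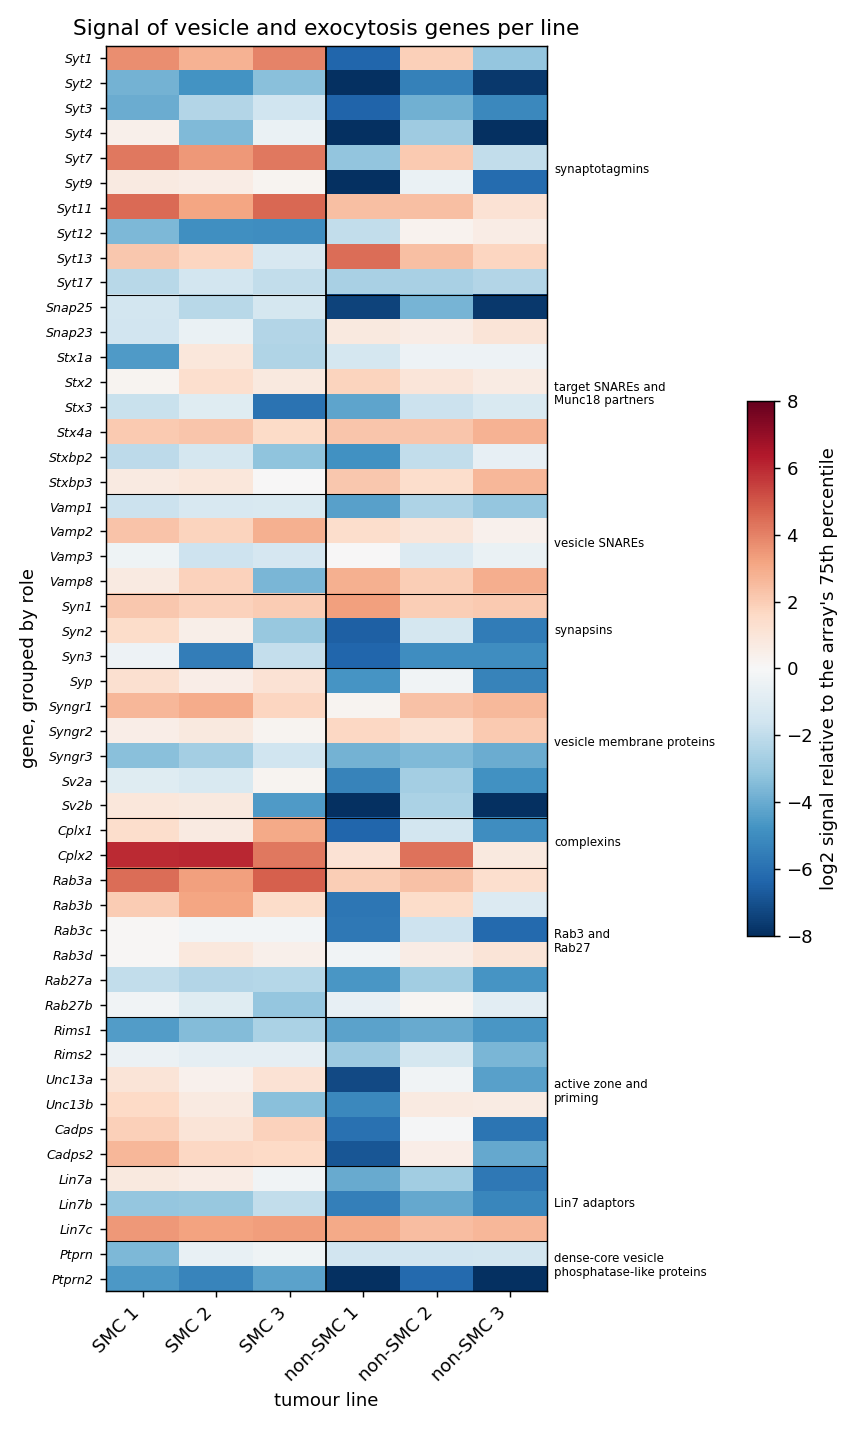
Log2 signal of the 50 tested members (rows, grouped by role) in each line (columns, SMC lines left of the line, non-SMC lines right of it), by colour relative to the 75th percentile of the array; values past the ends of the scale take its end colour. Rows such as Syp and Cplx1 are blue in non-SMC 1 and 3 and paler in non-SMC 2, while Syt1 is blue in non-SMC 1 and 3 and pale red in non-SMC 2.

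Lin7a encodes a PDZ-domain adaptor that works with Cask and Mint at the presynaptic membrane and holds receptors and adhesion proteins in place. Its signal was 0.78, 0.59 and -0.28 in SMC lines 1 to 3, against -4.05, -2.78 and -5.69 in non-SMC lines 1 to 3, the last of them not well above background. The groups did not overlap, and the within-pair differences of 4.83, 3.37 and 5.41 were all positive. Lin7a was higher in SMC by 4.54 ± 0.51 (moderated SE of the limma fit, 3 pairs), with a limma adjusted p of 0.0349. This size includes the signal of non-SMC 3 as measured, Lin7a being detected in 2 of 3 non-SMC lines. Its other 3 probes gave differences of 5.18, 4.64 and 5.32, with limma adjusted p-values of 0.0519, 0.0563 and 0.0341 in a fit with every probe as a feature, an alternative added after the data were seen. The limma adjusted p for Lin7a was 0.0792 with slide and pair both as blocks and 0.0577 without a filter on dim probes, and it was 0.148 without pair 1 and 0.139 without pair 3. The 4 lines on the shared slide alone gave 4.92 with a limma adjusted p of 0.138.

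The other Lin7 genes lay on the same side in all 3 pairs without passing the test. Lin7b had -3.07, -3.01 and -2.00 in the SMC lines, against -5.50, -4.06 and -5.19 in the non-SMC lines. Every SMC line was above every non-SMC line, and the difference was 2.22 ± 0.52 (SE), with a limma adjusted p of 0.117. Lin7c, the most widely expressed of the family, had 3.50, 3.23 and 3.36 in SMC and 3.03, 2.46 and 2.68 in non-SMC lines, a difference of 0.64 ± 0.28. Its other probes gave -0.96 and -0.44, so the sign for Lin7c rests on the probe chosen.

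**Figure D2:**
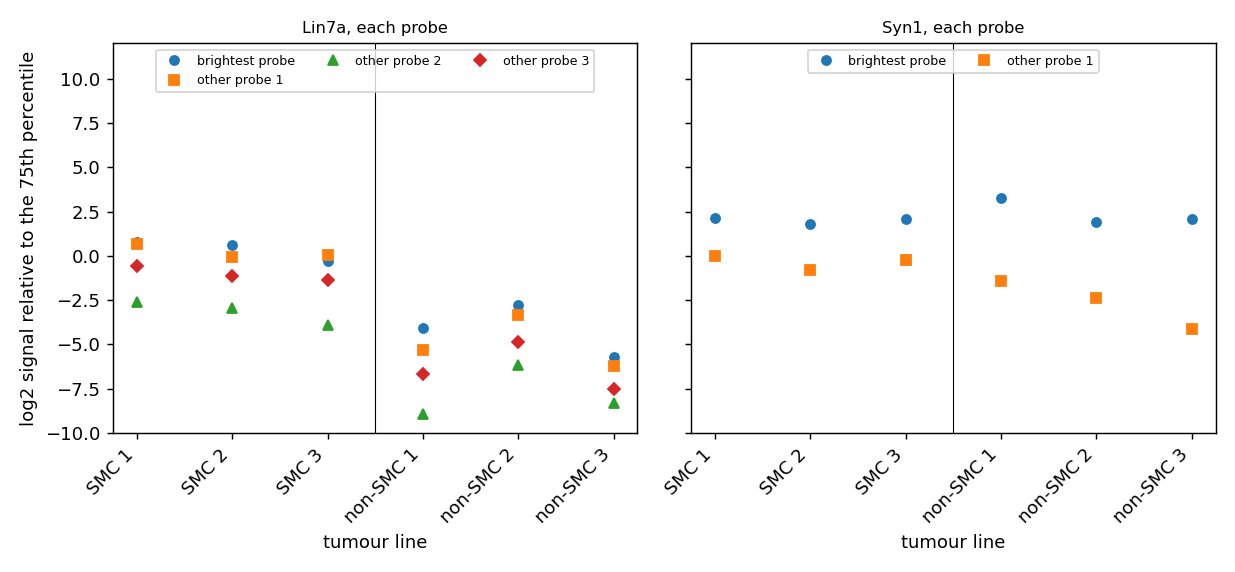
Log2 signal of each kept probe of Lin7a (left) and Syn1 (right) per line, SMC lines left of the vertical line and non-SMC lines right of it; each marker shape is 1 probe. The 4 Lin7a probes are all higher in the SMC lines than in the non-SMC lines, while the 2 Syn1 probes differ in direction.

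Synaptotagmins are membrane proteins of vesicles, many of which bind calcium. In 6 of the 10 tested every SMC line lay above every non-SMC line (22.8% of all features) and in 1 below (15.4%), with a median difference of 2.82 and none past the test. Syt1, the fast calcium sensor of transmitter release, had 3.75, 2.78 and 3.98 in the SMC lines, against -6.36, 1.93 and -3.12 in the non-SMC lines. The SMC lines were close to each other, and non-SMC 2 came within 1 log2 unit of SMC 2. The difference of 6.02 ± 1.93 did not pass (limma adjusted p = 0.161), with within-pair values of 10.11, 0.86 and 7.11. Syt7, a slower, high-affinity sensor found on secretory granules, had 4.19, 3.46 and 4.23 in SMC and -3.17, 2.10 and -1.99 in non-SMC lines, a difference of 4.98 ± 1.32. Syt9, another fast sensor, had 0.72, 0.59 and 0.22 in SMC and -8.87, -0.55 and -6.17 in non-SMC lines, where lines 1 and 3 were not well above background. Syt7 and Syt9 thus had no overlap between groups, with limma adjusted p-values of 0.132 and 0.153.

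Syt12, a synaptotagmin-like protein that does not bind calcium, lay on the other side. It had -3.57, -4.92 and -4.96 in SMC lines and -1.96, 0.29 and 0.60 in non-SMC lines. Every SMC line was below every non-SMC line, pair 2 included (-5.21). The difference was -4.13 ± 0.93, with a limma adjusted p of 0.113, and did not pass. This p was 0.0396 in the fit without the pairs and 0.0454 with median scaling, each with 4.91% of all features passing as lower. It was 0.0462 on the shared slide alone (3.08%), and 0.0137 to 0.364 when pairs or lines were left out. Syt12 did not pass with quantile normalization, normexp, the deposited values or the slide as a block. Syt13, also not calcium-binding, had 2.17, 1.71 and -1.25 in SMC and 4.45, 2.43 and 1.70 in non-SMC lines, with groups that overlapped barely and a difference of -1.98 ± 0.54. The remaining members, Syt2, Syt3, Syt4, Syt11 and Syt17, had positive differences of 0.62 to 5.46, of which Syt3 and Syt4 overlapped between groups.

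The target-membrane SNAREs and their Munc18 partners had a median difference of -0.47, with 1 of 8 members entirely above (22.8% of all features) and 2 entirely below (15.4%), counts too small to read against those shares. Snap25, the SNARE of neurons and endocrine cells that is cut by several botulinum toxins, had -1.44, -2.19 and -1.39 in SMC and -7.40, -3.69 and -7.74 in non-SMC lines. Snap25 was not well above background in non-SMC 1 and 3, and every SMC line lay above. Its difference was 4.60 ± 1.12 (limma adjusted p = 0.122), with 1.49 in pair 2. Snap23, the widely expressed counterpart of Snap25, had -1.55, -0.54 and -2.32 in SMC and 0.79, 0.57 and 1.02 in non-SMC lines. Here every SMC line lay below, with a difference of -2.26 ± 0.53 (limma adjusted p = 0.117).

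Stx1a, the plasma membrane syntaxin of synapses, had -4.51, 0.89 and -2.43 in SMC and -1.40, -0.38 and -0.40 in non-SMC lines. The groups overlapped, since SMC 2 was the highest line and SMC 1 the lowest, and the difference was -1.29 ± 0.96 (limma adjusted p = 0.437). Stxbp3, a Munc18 form used outside neurons, had 0.69, 0.92 and 0.00 in SMC and 2.13, 1.38 and 2.66 in non-SMC lines. Every SMC line lay below, with a difference of -1.52 ± 0.52 (limma adjusted p = 0.177). Stx2, Stx3, Stx4a and Stxbp2 overlapped between groups, with differences of -0.49 to 0.23.

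Among the vesicle SNAREs, Vamp2, the main synaptic form, had 2.29, 1.80 and 2.82 in SMC and 1.39, 0.96 and 0.35 in non-SMC lines. The groups did not overlap, and the difference was 1.40 ± 0.46 (limma adjusted p = 0.167). Vamp1, its close relative, had -1.73, -1.31 and -1.20 in SMC and -4.34, -2.48 and -3.09 in non-SMC lines, with a difference of 1.89 ± 0.40 (limma adjusted p = 0.108). Vamp8, which serves granule and endosome fusion in epithelial and blood cells, had 0.74, 1.85 and -3.63 in SMC and 2.87, 1.98 and 2.88 in non-SMC lines. All SMC lines lay below the non-SMC lines, with within-pair differences of -2.13, -0.13 and -6.51, and the group difference was -2.92 ± 1.35 (limma adjusted p = 0.253). Vamp3 had a difference of -0.59.

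Synapsins coat vesicles and tether them in a reserve pool. Syn1 had 2.15, 1.82 and 2.06 in SMC and 3.26, 1.94 and 2.08 in non-SMC lines by its brightest probe, a difference of -0.42 ± 0.37 (limma adjusted p = 0.509). Its other probe gave 0.01, -0.81 and -0.23 in SMC and -1.41, -2.38 and -4.16 in non-SMC lines, a difference of 2.31. The probes of Syn1 thus disagree in direction, so no direction is given for it. Syn2 had 1.48, 0.46 and -3.05 in SMC and -6.52, -1.39 and -5.58 in non-SMC lines, with SMC 3 below non-SMC 2 and a difference of 4.12 ± 1.39 (limma adjusted p = 0.171). Syn3 overlapped between groups, with a difference of 2.83 by its brightest probe, which was detected in 2 of 3 non-SMC lines. Its other kept probe, detected on all arrays, gave 0.17.

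Of 6 vesicle membrane proteins, 3 lay entirely above in SMC (22.8% of all features) and 1 entirely below (15.4%). Synaptophysin (Syp), a standard neuroendocrine marker in tumour pathology, had 1.26, 0.56 and 1.14 in SMC and -4.75, -0.30 and -5.33 in non-SMC lines. Every SMC line lay above, by 0.86 in pair 2 and by 6.01 and 6.47 in pairs 1 and 3. The difference was 4.45 ± 1.29 (limma adjusted p = 0.145). Sv2a, a transporter-like vesicle protein and the target of the antiseizure drug levetiracetam, had -0.98, -1.20 and 0.21 in SMC and -5.32, -2.72 and -4.82 in non-SMC lines, a difference of 3.63 ± 0.80 (limma adjusted p = 0.111). Sv2b had 0.88, 0.76 and -4.53 in SMC and -8.92, -2.55 and -8.24 in non-SMC lines. SMC 3 was below non-SMC 2 for Sv2b, which was not well above background in non-SMC 1 and 3, and the fitted difference was 5.61 ± 1.5 (limma adjusted p = 0.133).

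The synaptogyrins, relatives of synaptophysin, were mixed. Syngr2, the widely expressed form, had 0.55, 0.78 and 0.21 in SMC and 1.68, 1.23 and 2.12 in non-SMC lines. Every SMC line lay below, with a difference of -1.16 ± 0.40 (limma adjusted p = 0.178). Syngr1 overlapped between groups with a difference of 0.71 by its brightest probe and of 1.09 and 5.13 by its other probes. Syngr3 differed by 1.21.

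Complexins bind the assembled SNARE complex and couple it to calcium. Cplx1 had 1.39, 0.73 and 3.03 in SMC and -6.35, -1.48 and -4.97 in non-SMC lines. The groups were separate in every pair, by 7.74, 2.21 and 8.0, and the difference was 5.98 ± 1.35 (limma adjusted p = 0.114). Cplx2 had 6.00, 6.02 and 4.19 in SMC and 1.14, 4.32 and 0.81 in non-SMC lines. Non-SMC 2 lay above SMC 3 for Cplx2, and the difference was 3.31 ± 0.70 (limma adjusted p = 0.107). With median scaling both complexins passed the test, at limma adjusted p-values of 0.0476 for Cplx1 and 0.0435 for Cplx2.

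Rab3 and Rab27 proteins are small GTPases that bring vesicles to the membrane. Rab3a, the synaptic form, had 4.49, 3.27 and 4.76 in SMC and 1.94, 2.34 and 1.31 in non-SMC lines. The groups did not overlap, and the difference was 2.31 ± 0.59 (limma adjusted p = 0.127). Rab3c had 0.07, -0.19 and -0.23 in SMC and -5.71, -1.67 and -6.23 in non-SMC lines, a difference of 4.42 ± 1.07 (limma adjusted p = 0.121). Rab27b, which docks granules in secretory cells, had -0.31, -0.95 and -3.12 in SMC and -0.65, 0.13 and -0.86 in non-SMC lines, overlapping, with a difference of -1.0 ± 0.59 (limma adjusted p = 0.345). Rab27a lay above in every SMC line, by 1.87, and Rab3b and Rab3d overlapped, with differences of 4.01 and 0.0075.

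Priming factors make docked vesicles ready to fuse. Unc13a, the Munc13 form of most central synapses, had 1.01, 0.33 and 1.14 in SMC and -7.20, -0.29 and -4.34 in non-SMC lines. Every SMC line lay above, by 0.62 in pair 2, and the difference was 4.77 ± 1.58 (limma adjusted p = 0.168). Cadps, which primes dense-core granules, had 1.94, 1.02 and 1.82 in SMC and -5.98, -0.08 and -5.85 in non-SMC lines, a difference of 5.56 ± 1.59 (limma adjusted p = 0.142). Its relative Cadps2 differed by 5.42 and Rims2 by 2.03, both without overlap between groups. Rims1, an active zone scaffold that binds Rab3, had -4.50, -3.50 and -2.53 in SMC and -4.29, -4.02 and -4.66 in non-SMC lines. The groups overlapped for Rims1, whose difference was 0.81 ± 0.56 (limma adjusted p = 0.402).

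Ptprn and Ptprn2 are phosphatase-like proteins of the dense-core granule membrane. Ptprn2 had -4.60, -5.27 and -4.30 in SMC lines and was not well above background in any non-SMC line (-8.02, -6.24 and -7.97). Its mean was 3.05-fold higher in SMC when non-SMC signals were raised, where lower, to the lowest signal of any detected probe on their array. Undetected probes can lie above that signal, so this is not a strict lower bound. Ptprn2 did not pass the test (limma adjusted p = 0.123). Ptprn had -3.58, -0.61 and -0.34 in SMC and -1.54, -1.51 and -1.48 in non-SMC lines, overlapping, with a difference of -0.0030 ± 0.77 (limma adjusted p = 0.998).

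**Figure D3:**
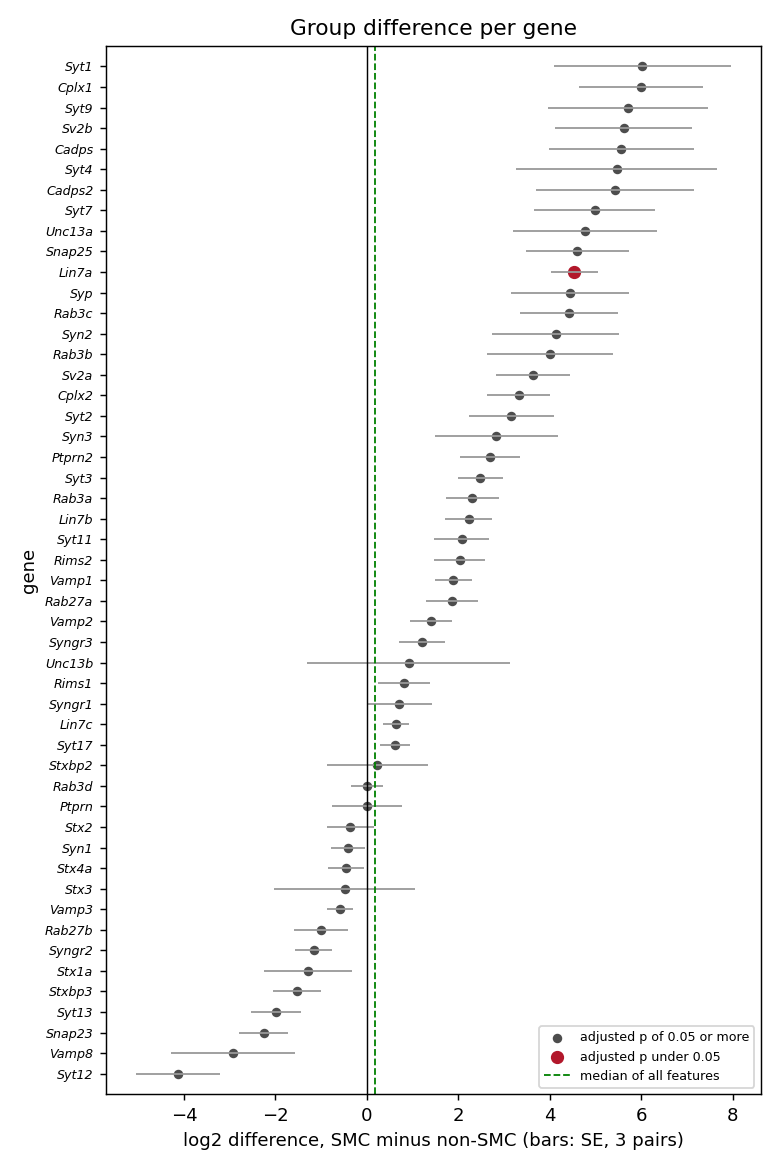
SMC minus non-SMC log2 difference of each tested member (points), sorted from the highest at the top, and the median of all features (dashed line). Bars are the SE of the limma fit over 3 pairs, moderated with the variance over all features. Lin7a is the single point with an adjusted p under 0.05 and has a shorter bar than its neighbours, and Syt12 is at the bottom at -4.13.

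The pairs differed in size. Over the 50 members, the median difference was 2.51 in pair 1, 0.80 in pair 2 and 2.5 in pair 3, where all features had medians of 0.06, 0.18 and 0.25. For 12 core neuronal members (Syt1, Snap25, Stx1a, Vamp2, Syp, Syn1, Sv2a, Cplx1, Rab3a, Rims1, Unc13a and Cadps), these medians were 5.15, 0.89 and 5.26. Both sets include members kept through the SMC arrays only (in the core Snap25, Cplx1 and Unc13a). Their non-SMC signals not well above background were taken as measured, so the sizes of these medians are uncertain. Non-SMC 2 lay more than 2 log2 units above both other non-SMC lines in 17 of 50 members (34.0%), against 5.08% of all features. These were Syt1, Syt2, Syt4, Syt7, Syt9, Snap25, Syn2, Syp, Sv2a, Sv2b, Cplx1, Cplx2, Rab3b, Rab3c, Unc13a, Cadps and Cadps2. Of these, Syt2, Syt4, Syt9, Snap25, Syn2, Sv2b, Cplx1, Rab3c, Unc13a and Cadps2 were kept in the test through the SMC arrays only. That route held 14 of the 50 members and 2017 of the 19848 features, so the shares above are not like for like. Non-SMC 2 is also the non-SMC line with the highest neuroendocrine markers, as given above, while its 10 mesenchymal markers were all detected.

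The calls depended on which pairs were kept. The fit without pair 2 holds only pairs whose lines lay on different slides. Without pair 2, 14 members passed as higher in SMC (2.64% of all features passed), namely Cadps, Cplx1, Lin7a, Ptprn2, Rab3c, Snap25, Sv2a, Syp, Syt1, Syt2, Syt4, Syt7, Syt9 and Unc13a. Of these, 9 were kept in the test through the SMC arrays only and 5 (Cadps, Sv2a, Syp, Syt1 and Syt7) were detected on all 6 arrays. Without non-SMC 2, in a fit that ignores the pairs, 21 passed as higher (7.85% of all features) and 1 as lower, Stxbp3 (5.78%). The 7 added on the higher side were Cadps2, Cplx2, Lin7b, Rab27a, Rab3a, Rims2 and Vamp1, and of the 21 in all 10 were kept through the SMC arrays only. Without pair 1 no member passed (0.0% of all features passed as higher and 1.04% as lower), nor without pair 3 (0.0% in both directions). The calls without pair 2 had 2.5% of all features on the lower side and no member there.

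**Figure D4:**
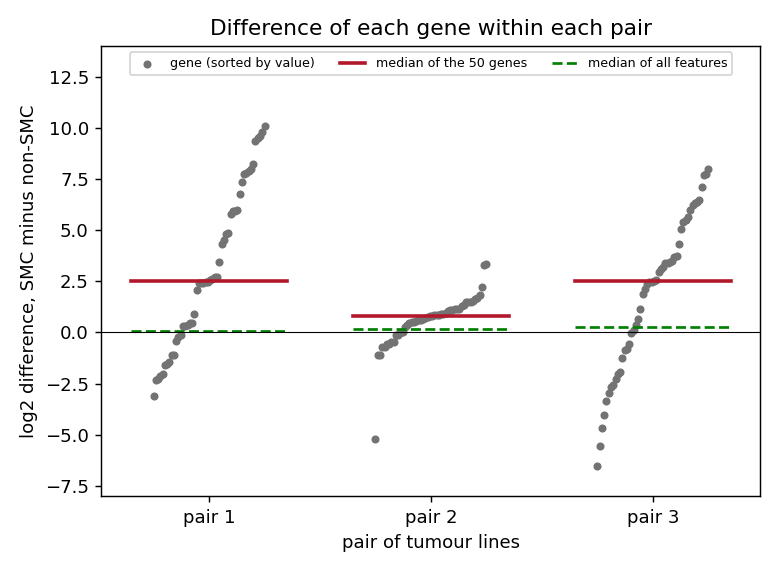
SMC minus non-SMC log2 difference of each tested member within each pair (grey points, sorted by value), with the median of the 50 members (solid line) and of all features (dashed line). The members' median is 0.80 in pair 2 and 2.51 and 2.5 in pairs 1 and 3.

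Other lines stood apart in other members. Non-SMC 1 lay more than 2 log2 units below both other non-SMC lines in 10 members (20.0%, against 6.04% of all features), and SMC 3 lay as far below both other SMC lines in 7 (14%, against 2.43%). The 7 were Syt13, Stx3, Vamp8, Syn2, Sv2b, Rab27b and Unc13b. Syt9, Unc13a and Cadps2 among the 10, and Syn2 and Sv2b among the 7, were kept through the SMC arrays only. These shares are thus not fully like for like either. Stx3, the syntaxin of apical membranes, had -1.80, -0.94 and -5.88 in SMC and -4.22, -1.74 and -1.19 in non-SMC lines. Stxbp2, its Munc18 partner, had -2.12, -1.43 and -3.23 in SMC and -4.85, -1.94 and -0.67 in non-SMC lines. By their brightest probes, Stx3 and Stxbp2 were lowest in SMC 3 among SMC lines and in non-SMC 1 among non-SMC lines.

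Unc13b, a Munc13 form also used outside the brain, showed this order most widely, with 1.60, 0.73 and -3.36 in SMC and -5.17, 0.73 and 0.67 in non-SMC lines. Its within-pair differences of 6.77, -0.01 and -4.03 had no common sign, and the group difference was 0.91 ± 2.23 (limma adjusted p = 0.819). The mean of the 5 epithelial markers was lowest in the same lines, at 3.29, 2.81 and -2.48 in SMC and -3.64, 4.30 and 4.65 in non-SMC lines. Epcam, an epithelial adhesion protein, had 3.38, 4.39 and -2.06 in SMC and -6.34, 2.61 and 2.51 in non-SMC lines. Krt19, a keratin, departed from this order, with 1.84, -4.49 and -4.82 in SMC and -2.87, 4.99 and 6.65 in non-SMC lines, so that SMC 2 was about as low as SMC 3. SMC 3 and non-SMC 1 are also the lines that lay alone on their slides. These members were picked for the pattern after the values were seen, and the part of epithelial content or slide in it was not tested.

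**Figure D5:**
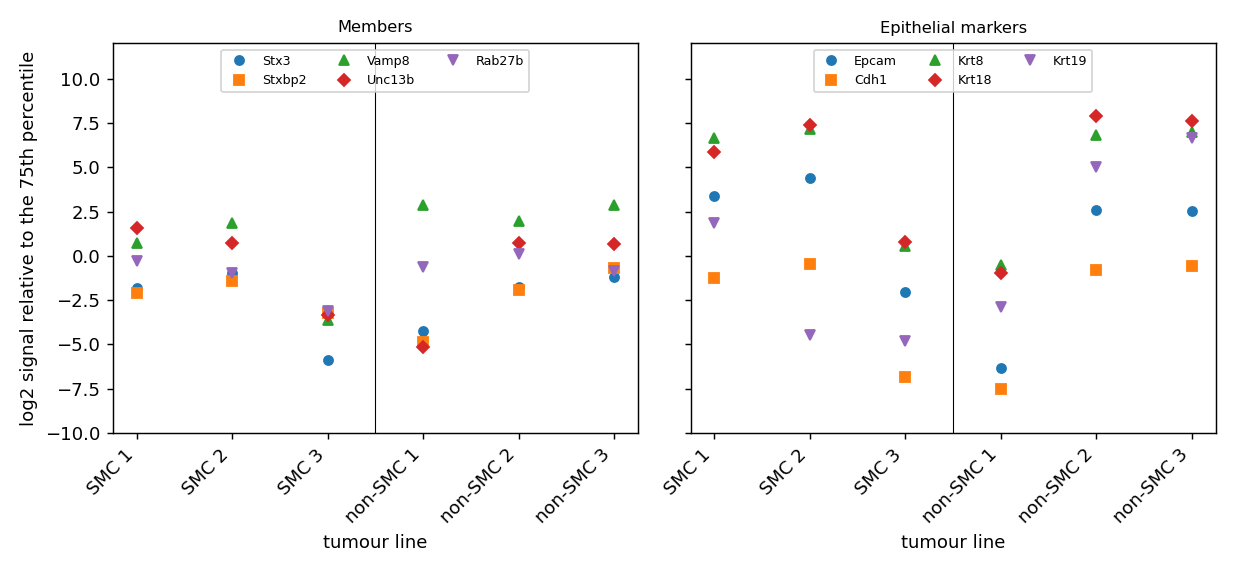
Log2 signal of 5 members (left) and 5 epithelial markers (right) per line, SMC lines left of the vertical line and non-SMC lines right of it; each marker shape is 1 gene. Stx3, Stxbp2 and Unc13b are low in SMC 3 and non-SMC 1, while Vamp8 and Rab27b are low in SMC 3 and not in non-SMC 1.

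Other genes of the vesicle pathway were read in the same fit. Of 18 further active zone genes tested, none passed in either direction, and the median was 1.98. In SMC, 7 lay entirely above (22.8% of all features) and 2 entirely below (15.4%). Bsn, Rims3, Ppfia2 and Apba1 were kept through the SMC arrays only, and Unc13c, Unc13d and Sytl2 through the non-SMC arrays only. The counts and the median thus follow in part from the filter. The largest difference was that of Pclo, a giant active zone scaffold, with 3.28, 2.53 and 1.39 in SMC and -6.55, 0.78 and -5.15 in non-SMC lines (6.04 ± 1.67, limma adjusted p = 0.137). Pclo thus had non-SMC 2 apart from the other non-SMC lines. Of 19 endocytosis genes none passed (median 0.34), Snap91, a neuronal clathrin adaptor, having the largest difference at 5.63 ± 1.68. Of 13 further vesicle membrane genes none passed (median 0.39), with Svop the largest at 5.78 ± 1.92. Svop was detected in 2 of 3 non-SMC lines and so kept through the SMC arrays only. Of 9 exocyst genes none passed (median 0.14), with Exoc6b the largest at -1.71 ± 0.55.

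Of 28 further SNARE and SNARE-regulating genes, none passed as higher (0.156% of all features) and 2 as lower in SMC (3.03%), with a median of -0.20. Stx11, a syntaxin of immune cells required for the release of cytotoxic granules, had -5.86, -5.49 and -4.14 in SMC and -2.79, -2.07 and -0.87 in non-SMC lines, and it was lower in SMC, with a difference of -3.25 ± 0.28 (limma adjusted p = 0.0217). Vamp5, a SNARE of muscle and other non-neuronal cells, had -6.26, -3.37 and -5.62 in SMC, where it was detected in 2 of 3 lines, and 0.58, 1.74 and 3.22 in non-SMC lines. It was lower in SMC, with a difference of -6.93 ± 0.81 (limma adjusted p = 0.0379). Every SMC line lay below every non-SMC line for both genes (15.4% of all features). The medians of the mesenchymal markers, given above, were also lower in SMC, while Thy1, Pdgfra and most leukocyte markers overlapped between groups. The part of these markers in the differences was not tested.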

How the data were processed

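Total RNA of 6 lines was measured on Agilent arrays of design 014868. Per the file headers, Feature Extraction 10.7.3.1 read the scans (10.7 in the submitters' processing notes). The deposited processed intensity is background-subtracted and not normalized between arrays, per the file headers. The deposited log2 values have equal quantiles in all columns (medians 5.06). They were used as an alternative.

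Control spots (1639) were left out, spots of a probe averaged and log2 of the processed intensity taken relative to the array's 75th percentile (485 to 696 intensity units). A probe was detected where most of its usable spots were well above background, and kept if detected on all arrays of at least 1 group. The brightest kept probe stood for a gene. The files pair probes with accessions, and 27479 of 41174 probes were named through the RefSeq table of GRCm38.p6.

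Limma 3.58.1 in R 4.3.3 (lmFit, eBayes) was fitted with pair and group over all 19848 features, two-sided, with Benjamini-Hochberg adjustment and a threshold of 0.05. The residual degrees of freedom were 2 and the prior ones 2.07. The script was tested on simulated data. The labels give the pairing. Between the lines of a pair, deviations from the group means had correlations of -0.01, 0.14 and 0.00. In the main fit, p-values rest on the spread of the differences within the pairs, moderated by limma with the variance over all features. Each SE given is the moderated SE of that fit. With 3 lines a group, p-values measure no spread beyond these lines, and the number of arrays limits the precision.

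The members, the related lists and the markers were chosen with earlier results of these data known. Given in full were members past the threshold, 12 neuronal core members (Syt1, Snap25, Stx1a, Vamp2, Syp, Syn1, Sv2a, Cplx1, Rab3a, Rims1, Unc13a and Cadps), and per role the members with the largest difference on either side. Of each related list, up to 3 genes past the threshold were named, or the 1 with the largest difference. Other members with per-line values and the promoters shown were picked with their values in view. The settings tried were median scaling, quantile normalization, the deposited values, normexp (offset 50), averaging a gene's probes, requiring detection on every array, no filter, no pair term, slide as a block, the shared slide alone, dim signals at the floor and leaving out pairs or lines.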

Additional observations from a re-analysis of the deposited data

How the results depend on the processing

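Over all features, 31 passed as higher and 602 as lower in SMC. These counts were 239 and 974 with median scaling, 274 and 975 with no replicate block, 7 and 383 without a filter on dim probes and 4 and 135 with detection on all arrays. The higher count was 54 with normexp, 9 with the slide as a block and 20 on the shared slide alone. Leaving out pairs, or single lines in fits without the pair term, gave 0 to 1559 higher and 0 to 1147 lower. Members passing were 1 higher and 0 lower. They were 3 and 1 with median scaling, 1 and 1 with no replicate block (ignoring the pairing, Syt12 passed with a limma adjusted p of 0.0396), 0 and 1 on the shared slide alone, and 0 higher without a filter, with detection on all arrays (Lin7a was then not kept) and with the slide as a block. Leaving out pairs or lines gave 0 to 21 higher and 0 to 1 lower. The median member difference of 1.96 was 0.88 with normexp and 0.64 with detection on all arrays, which drops the members dim in non-SMC lines, and 1.62 to 2.64 when pairs or lines were left out. The Lin7a difference was 3.78 to 5.23 in those fits, with limma adjusted p-values of 0.0105 to 0.148.

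Signs turned for members with small differences. Rab3d was -0.018 with quantile normalization, -0.074 with median scaling, -0.026 with normexp, -0.018 with the deposited values and -0.34 on the shared slide. Stxbp2 was -0.033 with normexp and -0.47 on the shared slide, Stx3 0.096 on the shared slide and Ptprn 0.065 with normexp. With the mean of a gene's probes, Syn1 was 0.95 and Lin7c -0.26. Leaving out pairs or lines gave -0.71 to 0.24 for Stx2, -1.94 to 1.61 for Stx3, -1.02 to 1.62 for Stxbp2, -0.66 to 0.00053 for Syn1, -0.14 to 1.5 for Syngr1, -0.35 to 0.30 for Rab3d, -2.02 to 3.38 for Unc13b and -0.59 to 1.03 for Ptprn. Where no cause is given by the construction of a setting, the cause was not tested. Members not well above background in non-SMC lines have differences that depend on how dim signal is treated.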
